A study of Mus musculus with 6 samples.

Results

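The Wnt pathway genes were followed across 6 expression arrays of isolated hippocampal cells from control mice and from HuD transgenic mice. HuD, the product of Elavl4, binds and stabilises messenger RNAs in neurons. Members were chosen by a rule on gene symbols that uses no measured value, though earlier results of these data were known when it was set. They are the Wnt ligands (Wnt), the frizzled receptors (Fzd), the coreceptors Lrp5 and Lrp6, the dishevelled proteins (Dvl) and the secreted inhibitors (Sfrp and Dkk). They further include Axin1 and Axin2, Gsk3a and Gsk3b, Apc, Ctnnb1, Lef1, Tcf7l1 and Tcf7l2. This gave 51 genes with 107 probe sets, out of 45037 on the array other than control probe sets, and each gene was represented by its probe set of highest mean. The brightness filter described in the next paragraph left 26 of the 51 members, among 14678 genes tested in all, of which 11138 have a single symbol and the rest are probe sets counted by their own identifier. The labels call the cells DGCs, taken here as dentate granule cells, and name 2 mice per group. By the sample descriptions, the first mouse of either group was hybridised to 1 array and the second mouse to 2. The titles number the arrays of control mouse 2 as control 1 and control 2, so whether they come from 1 animal is uncertain, and n = 2 and the standard errors rest on the descriptions. With the 6 arrays taken as separate samples, 0 genes passed as well (limma, 558 at an unadjusted p under 0.05) and the log2 difference of Wnt11 was 1.14. The title calls the transgenic mice HuD overexpressors, with the promoter of the kinase gene Camk2a as far as is known of this line, and no other allele or agent is named for either group. The arrays do not show the overexpression: the Elavl4 probe set of highest mean had a log2 difference, transgenic minus control, of -0.33 (limma, SE 0.27, 95% interval -1.03 to 0.37), and whether it detects the transgene was not examined. Transgenic refers throughout to the arrays so labelled. Age, sex and strain are not stated in those labels, and each group rests on 2 mice.

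Values are linear probe set intensities that were scaled by the authors to the same trimmed mean on every array. An intensity of 10.1, the 25th percentile of all values, was used as a floor. A gene was tested where its mean log2 intensity over the 6 arrays exceeded 4.92, the median of all probe sets. Differences are log2 of transgenic over control, from the means of 2 against 2 mice, with the standard error (SE) and 95% interval of the limma fit. Intensities of different probe sets cannot be set against each other, so levels are compared only between arrays for the same probe set. Of the 25 members not tested, 2 were at or under the floor on all 6 arrays, 7 on 4 or 5, 11 on 1 to 3 and 5 on none. The labels name the mice but not how they were raised or dissected, so part of the spread may be technical.

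Wnt proteins are secreted lipid-modified ligands. In the canonical branch they bind a frizzled receptor together with Lrp5 or Lrp6, dishevelled then blocks the destruction complex of Axin, Apc and Gsk3, and beta-catenin (Ctnnb1) accumulates and activates transcription with Tcf and Lef factors. In the adult dentate gyrus Wnt signals from astrocytes are known to promote the formation of new granule cells, and secreted inhibitors of the Sfrp and Dkk families restrain them.

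Regulatory sequence is shown for 3 members described at length. Wnt11 and Ctnnb1 are the 2 of 26 tested members (7.69%) whose control and transgenic arrays did not overlap, a share near that of all genes (8.07%), and Axin2 is the textbook feedback target of beta-catenin. The 250 bases upstream of an annotated start, from RefSeq on build GRCm38.p6 and all on the plus strand, were searched for the 4 forms, each of 7 letters, of the Tcf and Lef core, CTTTGAA or CTTTGAT or CTTTGTA or CTTTGTT, on both strands. Only 1 of these forms can begin at a given base of a strand, and matches are in capitals. The Wnt11 window is chr7:98834862-98835111, that of Ctnnb1 is chr9:120933150-120933399 and that of Axin2 is chr11:108920099-108920348.
Wnt11: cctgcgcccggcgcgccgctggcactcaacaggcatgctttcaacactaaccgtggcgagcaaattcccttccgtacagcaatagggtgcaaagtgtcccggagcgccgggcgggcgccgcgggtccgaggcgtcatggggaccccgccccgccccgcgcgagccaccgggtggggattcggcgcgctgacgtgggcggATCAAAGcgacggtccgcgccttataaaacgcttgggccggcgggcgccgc
Ctnnb1: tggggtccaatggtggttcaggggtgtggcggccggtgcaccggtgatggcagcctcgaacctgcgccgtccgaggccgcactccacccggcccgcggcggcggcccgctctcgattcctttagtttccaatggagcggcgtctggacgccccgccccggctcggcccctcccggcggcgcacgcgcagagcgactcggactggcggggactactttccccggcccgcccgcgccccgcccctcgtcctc
Axin2: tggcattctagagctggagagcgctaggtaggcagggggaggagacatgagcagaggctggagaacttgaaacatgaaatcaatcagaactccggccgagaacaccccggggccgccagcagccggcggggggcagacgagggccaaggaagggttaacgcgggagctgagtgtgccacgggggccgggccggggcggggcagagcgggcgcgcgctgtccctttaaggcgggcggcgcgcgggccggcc
The Wnt11 window holds 1 match, CTTTGAT on the minus strand, and the other 2 windows hold 0. As printed, on the plus strand, the leftmost base of the match is at position -51 from the start. A second annotated start of Wnt11 and one of Ctnnb1 had 0 matches as well. Windows were found for 35 of the 51 members, 43 in all, and 7 of these (16.3%) held a match, against 14.8% of 32851 windows of all genes. The 7 belong to Dkk1, Fzd7, Gsk3a, Lef1, Tcf7l2, Wnt11 and Wnt5b. A match is a stretch of letters and was not tested as a binding site.

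The first question was whether the ligands differ between the groups. All 19 Wnt genes have probe sets, and 5 of them were tested, Wnt5a, Wnt7b, Wnt9a, Wnt10a and Wnt11. Wnt11, a ligand known mainly for signalling outside the beta-catenin branch, had the largest separation. Its intensities were 20.2 on the array of control mouse 1, and 16.4 and 27.9 on the 2 arrays of control mouse 2. On the transgenic arrays they were 38.9 for mouse 1, and 57.1 and 44.9 for mouse 2. Every transgenic array was thus above every control array. Averaged by mouse, log2 intensity was 4.38 ± 0.06 for control and 5.47 ± 0.27 for the transgenic group (SD, n = 2). This is a ratio of 2.13 (log2 difference 1.09, SE 0.20, 95% interval 0.58 to 1.61). Over all genes tested this did not pass (limma, adjusted p = 0.999), and the adjusted p ran from 0.134 to 1 over the alternatives. The 0.134 came from the limma fit with the mouse as a random block. There the estimated correlation of arrays within a mouse was negative (-0.537), and 12.1% of all genes had an unadjusted p under 0.05. That lower end is therefore not reliable. Wnt11 is dim: its mean over the 6 arrays, 4.96, was just above the filter, and its control mean lay under it, so it was tested through its transgenic values. With the floor raised to the median intensity the difference was 0.36. Without any 1 mouse or array it stayed between 0.90 and 1.29.

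Wnt7b, a ligand known to promote dendrite growth of hippocampal neurons, read 91.3, 93.8 and 87.0 on the control arrays (mouse 1, then the 2 arrays of mouse 2). On the transgenic arrays it read 140, 132 and 87.1 in the same order. The second array of transgenic mouse 2 lay within the control range, and the other 2 transgenic arrays above it. The difference was 0.43 (SE 0.20, interval -0.08 to 0.95; limma, adjusted p = 0.999). Wnt9a (0.10, interval -0.30 to 0.51), Wnt10a (-0.21, -1.01 to 0.58) and Wnt5a (-0.32, -1.34 to 0.70) had intervals that span 0. The 2 Wnt5a probe sets above the filter gave -0.32 and -0.85, with overlapping arrays.

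The other 14 ligands did not pass the brightness filter and were not tested. Wnt3a, the ligand most often linked to hippocampal neurogenesis, read 20.8, 30.2 and 10.4 in control mice, against 7.3, 11.9 and 6.2 in transgenic mice. The third control value lies within the transgenic range. Wnt2b had 29.8, 24.4 and 7.5 in control and 3.0, 6.3 and 13.4 in transgenic mice, again with overlap. Wnt9b was at or under the floor on all 3 control arrays and at 11.5, 14.3 and 16.1 on the transgenic arrays. Wnt7a, also a ligand of the adult hippocampus, stood just under the filter at a mean of 4.89, with a difference of 0.01.

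**Figure D1:**
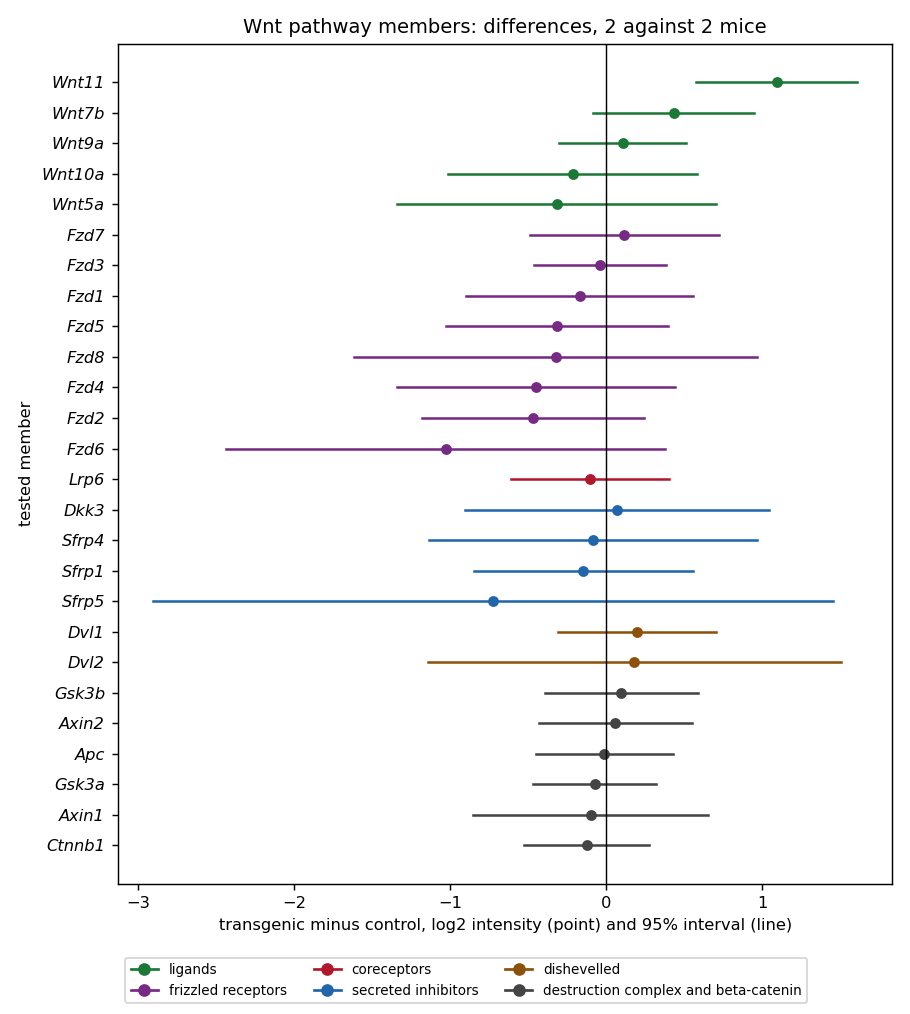
Transgenic minus control difference in log2 intensity for each of the 26 tested members, grouped by role, from 2 control and 2 transgenic mice. Points are differences and lines are 95% intervals of the limma fit. The interval of Wnt11 is 0.58 to 1.61, but Wnt11 passed the filter only through its transgenic values. The other 25 intervals cross 0. Averaged over arrays, as in the filter, Fzd5 and Fzd6 passed only through their control values and Dvl2 only through its transgenic values.

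All 10 frizzled receptors have probe sets, and 8 were tested. These receptors bind Wnt through a cysteine-rich outer domain. Of the 8, 7 had lower means in the transgenic mice (median -0.32) and Fzd7 a higher one (0.12), with 0 past the threshold. Fzd6, a receptor of the planar polarity branch, had the largest difference, with 80.4, 52.5 and 50.7 in control mice, against 52.1, 36.2 and 6.4 in transgenic mice. The value of 6.4, on the second array of transgenic mouse 2, was under the floor, and transgenic mouse 1 lay within the control range. The difference was -1.03 (SE 0.54, interval -2.44 to 0.38; limma, adjusted p = 0.999). It was -0.31 without transgenic mouse 2 and -1.75 without transgenic mouse 1. Averaged over arrays, as in the filter, the transgenic values of Fzd6 lay under the filter and its control values above it. The same held for Fzd5.

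Fzd4, a receptor for Wnt ligands and for norrin that is known from blood vessels, read 160, 72.9 and 133 in control and 114, 84.5 and 64.8 in transgenic mice (difference -0.45, interval -1.34 to 0.44). The groups overlapped, and the size depended on single mice. Leaving out control mouse 1 gave -0.10, leaving out transgenic mouse 2 gave -0.14, and leaving out control mouse 2 gave -0.80. A second Fzd4 probe set above the filter had 38.6, 65.4 and 40.7 in control and 37.7, 31.1 and 33.9 in transgenic mice. There every transgenic array was lower, with a difference of -0.35. Fzd2, which can signal through calcium, had 60.02, 37.7 and 38.4 against 31.9, 49.6 and 28.1 (difference -0.47, interval -1.18 to 0.24). It was -0.14 without control mouse 1 and -0.80 without control mouse 2. Fzd3, a receptor needed for axon tracts, was well above the floor on every array, at 534 to 645 in control and 478 to 657 in transgenic mice, and differed by -0.04 (-0.46 to 0.38). Fzd1 (-0.17), Fzd5 (-0.32) and Fzd8 (-0.32) overlapped between the groups.

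Fzd9 and Fzd10 were not tested. Fzd10 read 12.7, 13.5 and 45.9 in control and 23.4, 37.0 and 75.3 in transgenic mice, with overlap. The coreceptors were split by signal. Lrp6 read 205, 241 and 207 on the control and 177, 237 and 214 on the transgenic arrays, a difference of -0.10 (interval -0.61 to 0.40). The 1 probe set of Lrp5 was at or under the floor on all 6 arrays, so it gave no difference. A second Lrp6 probe set differed by 0.16.

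Among the 8 secreted inhibitors 4 were tested. Sfrp proteins bind Wnt ligands through a frizzled-like domain, and Dkk proteins bind Lrp5 and Lrp6, with Dkk3 as a divergent member. Dkk3 (0.07, interval -0.91 to 1.04), Sfrp4 (-0.08, -1.14 to 0.97) and Sfrp1 (-0.15, -0.85 to 0.56) had wide intervals around 0. Sfrp5 read 36.2, 49.3 and 37.9 in control and 1.9, 74.9 and 43.0 in transgenic mice. Its difference of -0.73 rests on the array of transgenic mouse 1, the lowest of the 6 and under the floor, and was 0.52 without that mouse. Second probe sets, under the filter and with overlap, gave 0.31 for Sfrp5 and -0.43 for Dkk3, against the sign of the gene. That of Sfrp1 gave -0.83, of the same sign. Of the untested inhibitors, Dkk1, which blocks canonical signalling and is known to be induced by injury in neurons, read 21.9, 19.4 and 3.1 in control and 35.3, 36.0 and 28.9 in transgenic mice. All 3 transgenic arrays were higher, at a mean under the filter (difference 0.95). Sfrp2 was under the floor on all control arrays and on transgenic mouse 1, and read 46.0 and 28.3 on the arrays of transgenic mouse 2.

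Of the 8 intracellular members tested, 4 had higher and 4 lower means, and 0 passed the threshold. Dvl1, which carries the signal from the receptors, read 2267, 2986 and 2767 in control and 2782, 3423 and 2772 in transgenic mice, a difference of 0.20 (interval -0.31 to 0.70). Its second probe set differed by 0.30. Dvl2, which by its array means passed the filter only through its transgenic values, had 50.9, 10.6 and 33.3 against 31.1, 52.9 and 29.6 (difference 0.18, SE 0.50). Dvl3 was at or under the floor on every array.

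Ctnnb1 was the other tested member whose arrays did not overlap. Its intensities were 6363, 6785 and 6684 in control mice, against 6037, 5605 and 6346 in transgenic mice. All transgenic arrays were lower, by a small amount: the difference was -0.13 (SE 0.15, interval -0.53 to 0.27; limma, adjusted p = 0.999), and the transgenic level was 0.917 of the control level. The highest transgenic and lowest control array lay close together, and after quantile normalization the groups overlapped. A second Ctnnb1 probe set above the filter, of the same direction, read 109, 96.9 and 98.9 in control and 63.6, 73.4 and 51.9 in transgenic mice. There the groups were farther apart, with a difference of -0.72 (interval -0.99 to -0.44), which in a limma fit over all 45037 probe sets gave adjusted p = 0.554. The third probe set, near the floor, gave 0.36 with overlap. The 2 brighter probe sets thus gave the same sign and different sizes, and their mean differed by -0.42.

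Differences in the destruction complex lay between -0.10 and 0.10. Gsk3a, a kinase that marks beta-catenin for removal, read 1056, 1120 and 978 in control and 995, 958 and 1049 in transgenic mice (difference -0.07, interval -0.47 to 0.32). Gsk3b had 1225, 1267 and 1144 against 1460, 1173 and 1137 (0.10, -0.39 to 0.59). Its 6 probe sets, all above the filter, ranged from -0.66 to 0.27 with both signs. Apc, the scaffold of the complex, differed by -0.01 (-0.45 to 0.43) and Axin1, its limiting scaffold, by -0.10 (-0.85 to 0.65). Axin2 read 179, 173 and 159 in control and 201, 155 and 166 in transgenic mice, a difference of 0.06 (-0.43 to 0.55). Its second probe set, under the filter, read 16.3, 25.2 and 36.8 in control and was under the floor on all 3 transgenic arrays, which is the opposite direction. For all 6 genes of this group the 95% interval stayed within 1 log2 unit of 0, as it did for 14 of the 26 tested members and for 77.0% of all genes tested.

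**Figure D2:**
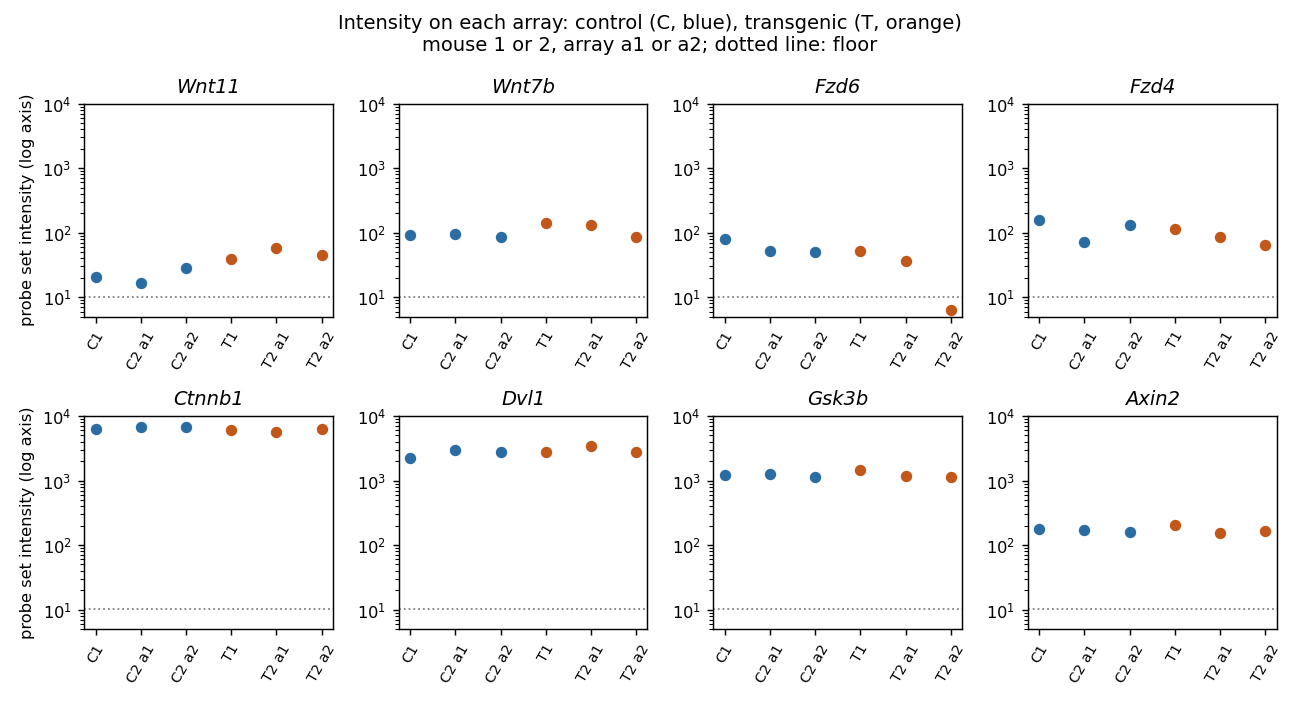
Intensity of 8 members on each of the 6 arrays (log axis), with control arrays in blue, transgenic arrays in orange and the floor of 10.1 as a dotted line. Wnt11 is higher on every transgenic array, Ctnnb1 is slightly lower on every transgenic array, and the other 6 overlap between the groups.

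No transcription factor of the pathway was tested. Lef1 stood just under the filter, with 31.1, 37.7 and 25.6 in control and 40.0, 26.7 and 22.9 in transgenic mice, a difference of 0.02. Tcf7l1, known as a repressor of Wnt targets, was also just under it, with 33.0, 53.8 and 33.8 against 18.3, 40.1 and 17.2 (difference -0.78, with overlap). Tcf7l2, the factor typical of thalamic neurons and of maturing oligodendrocytes, has 4 dim probe sets. That of highest mean gave 0.68 with overlap. The next was under the floor on all control arrays and read 31.4, 38.3 and 21.0 on the transgenic arrays. Tcf7 itself is not among the members, since no probe set carries it as its only symbol.

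Taken over the members, 0 of 26 passed the limma threshold of 0.05 after Benjamini-Hochberg adjustment, as did 0 of 14678 genes (0%). At an unadjusted p under 0.05 there was 1 member, Wnt11, and 4.31% of all genes. Since Wnt11 was tested only through the group where it is high, this count supports nothing, and it was 0 with the floor at the median intensity. The sign was lower for most members, but the sizes were small. Of the 26, 9 had higher and 17 lower means in the transgenic mice, with a median difference of -0.09. Of all genes 49.5% were lower, and their median was 0.0026. The 17 include Fzd5 and Fzd6, which by their array means passed the filter only through their control values. For Sfrp5 the transgenic mean by mouse, 4.58, lay under the filter, but the mean over its transgenic arrays did not. Dvl2, among the 9, passed only through its transgenic values. The median absolute difference of the members, 0.16, was close to that of all genes, 0.15. The median difference between the 2 arrays was 0.21 for control mouse 2 and 0.40 for transgenic mouse 2. Those values set 1 array against 1, while the group difference averages mice, so the sizes cannot be ranked. Arrays did not overlap in the higher direction for 1 member (3.86% of all genes) and in the lower direction for 1 member (4.22% of all genes). These shares are near the background of all genes.

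Probe sets that were not chosen to represent a gene give a second view. Of the 107 member probe sets 39 passed the filter and 8 were at or under the floor on all 6 arrays. Arrays did not overlap for 6 probe sets in the higher direction, of Wnt11, Tcf7l2, Fzd6, Dkk1, Fzd3 and Wnt9b, where 3.01% of all probe sets did so. They did not overlap for 4 in the lower direction, 2 of Ctnnb1 and 1 each of Axin2 and Fzd4, where the share of all probe sets was 4.01%. Of the 6 higher ones only that of Wnt11 passed the filter. The higher Fzd6 probe set read 4.1, 5.6 and 7.9 in control and 31.7, 16.2 and 13.8 in transgenic mice, against the direction of the probe set that represents the gene. Among the 8 members with several probe sets past the filter, all probe sets had the same sign for 5.

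**Figure D3:**
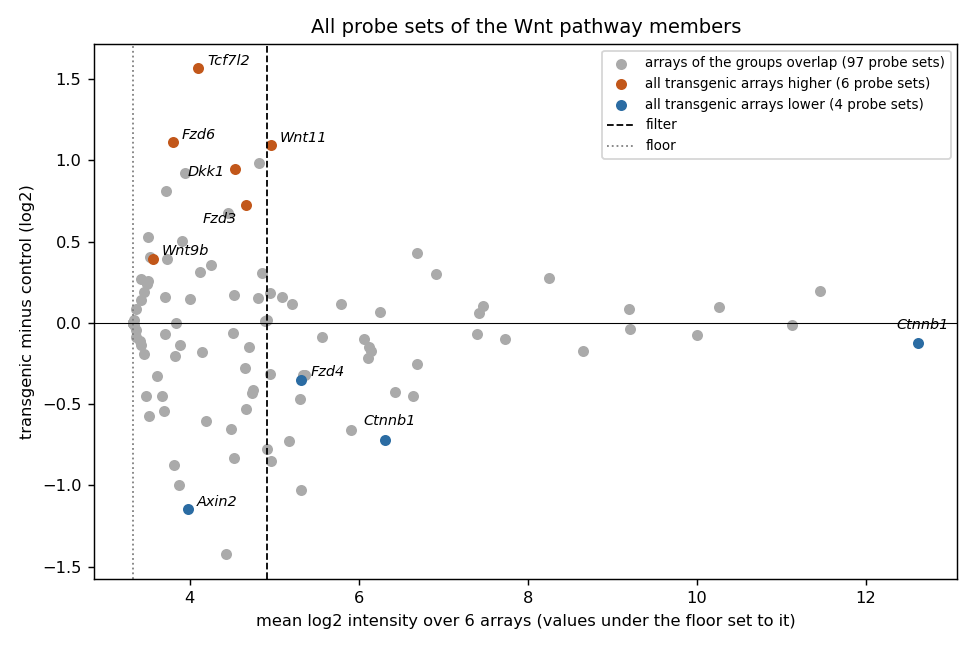
Mean log2 intensity over the 6 arrays against the transgenic minus control difference for all 107 member probe sets, with the floor (dotted) and the filter (dashed). The 10 probe sets whose control and transgenic arrays do not overlap are coloured and named; 6 are higher and 4 lower in the transgenic mice, and most of the larger differences lie left of the filter.

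Other genes of the pathway gave a like picture. Lists of secretion factors, receptors, cytoplasmic regulators, nuclear cofactors, polarity genes and target genes held 106 genes outside the members, of which 99 are annotated on the array and 72 were tested. Of these 38 were higher and 34 lower (median 0.015), 0 passed the threshold in either direction (limma), and 1 had an unadjusted p under 0.05, where 4.31% of all genes did, so the count is no result about the list. That gene was Celsr3, a cadherin of the planar polarity branch that guides axons, at 89.0, 167 and 75.4 in control and 138, 156 and 163 in transgenic mice. The groups overlapped, and the difference was 0.57 (SE 0.20, interval 0.05 to 1.09).

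Of 5 tested extracellular factors 4 were higher, among them Frzb, a Wnt-binding relative of the Sfrp proteins (0.34, SE 0.17), and Rspo3, which strengthens Wnt responses through Lgr receptors (0.31, SE 0.18). Of 5 receptors 3 were higher, with the kinase-like receptor Ryk at -0.33 (SE 0.23). Of 24 cytoplasmic regulators 13 were higher and 11 lower. Tnks2, a tankyrase that destabilises Axin, read 4149, 3712 and 4082 in control and 3473, 3346 and 3592 in transgenic mice. All transgenic arrays were lower, with a difference of -0.21 (SE 0.15). Of 14 nuclear cofactors 8 were higher, with the corepressor Tle1 at 428, 440 and 446 in control and 483, 666 and 538 in transgenic mice. There all transgenic arrays were higher, with a difference of 0.30 (SE 0.18). Of 15 polarity genes 7 were higher, with Rock1, a kinase acting on the actin skeleton, at 0.27 (SE 0.18), and Daam2 at -0.50 (SE 0.22). The arrays of Rock1 only just did not overlap, with 802 on the highest control and 803 on the lowest transgenic array. Of 11 target genes 5 were higher and 6 lower (median -0.04), with Ccnd2, a cyclin of dividing progenitors, at 0.16 and Jun at 0.22. None of these differences passed over all genes tested (limma, adjusted p = 0.999 for each gene named). Arrays did not overlap for 5 of the 72 genes: Tle1 and Rock1 were higher, and Tnks2, Nlk and Mycn lower, the last 2 named after their values were seen. Of all genes 8.07% did not overlap, so these 5 do not stand above the background.

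The arrays themselves differed. The title tag re-LCM, which the labels do not explain, is carried by 3 arrays, those of both first mice and the first array of transgenic mouse 2. Within the tagged arrays (1 control, 2 transgenic) Wnt11 differed by 1.22 and within the others (2 control, 1 transgenic) by 1.07. Ctnnb1 gave -0.13 and -0.09. Fzd6 gave -0.89 and -2.36, and Fzd4 -0.70 and -0.60. Wnt7b gave 0.57 within the tagged arrays but -0.05 within the others, so it did not hold within both. The second kind of value sets 1 mouse against 1 mouse and has no test. The direction of Dvl1 also turned, from 0.45 to -0.05. Of the 26 tested members 5 kept their direction under every alternative and every array or mouse left out: Ctnnb1, Fzd2, Fzd4, Fzd6 and Wnt11. The alternatives reuse the same arrays, and the share of all genes that did so was not computed. The count is thus no result about the members. For Ctnnb1, Fzd2, Fzd4 and Fzd6 a dim probe set under the filter went the other way (0.36, 0.50, 0.24 and 1.11). The remaining probe set of each had the sign of the gene. The sizes for Fzd2, Fzd4 and Fzd6 varied with the mouse left out, as given above.

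**Figure D4:**
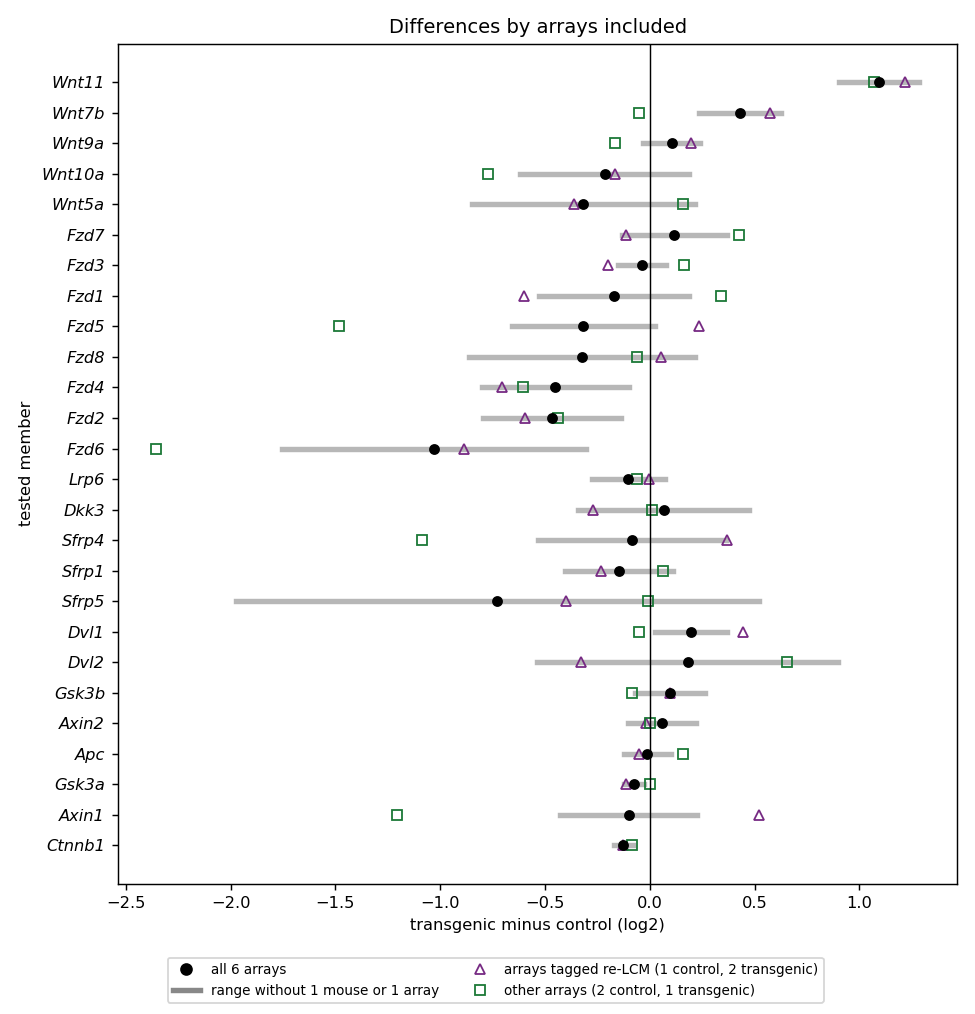
Transgenic minus control difference (log2) of the 26 tested members from all arrays (black), its range when 1 mouse or 1 array is left out (grey bars), and the values within the arrays tagged re-LCM (triangles) and within the others (squares). Wnt11 stays between 0.90 and 1.29 when 1 mouse or array is left out, while Sfrp5 runs from -1.97 to 0.52.

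Granule cell markers were above the filter in all 10 of 10 listed genes, including Prox1 (-0.12) and Calb1 (0.09). Of the 10, 3 were higher and 7 lower in transgenic mice, with a median difference of -0.13. Markers of other cell types were present as well, and some of each list did not pass the filter: the tested genes were 9 of 12 listed for oligodendrocytes, 7 of 12 for microglia, 11 of 12 for astrocytes, 8 of 12 for vessels, 5 of 6 for pyramidal cells and 10 of 11 for interneurons. All 9 tested oligodendrocyte markers had lower means in transgenic mice, with a summed intensity of 4876 to 12233 on the control and 5656 to 8273 on the transgenic arrays. The means were also lower for microglia markers in 7 of 7 (3209 to 4564 and 3025 to 3752), astrocyte markers in 8 of 11 (6196 to 9076 and 6515 to 7381), vascular markers in 6 of 8 (509 to 719 and 401 to 556), pyramidal cell markers in 3 of 5 (770 to 863 and 675 to 1070) and interneuron markers in 8 of 10 (2996 to 3716 and 3494 to 3783). For 5 of these 6 lists the single array of control mouse 1 had the top mean level, all but the pyramidal cell list. Fzd1, Fzd2, Fzd4 and Fzd6 were also at their highest there. Fzd3, Fzd5, Fzd7 and Fzd8 were not, nor was the second Fzd4 probe set above the filter. Of the 26 members 5 (19.2%) were highest on that array, against 14% of all genes. The part of these cells in the frizzled differences was not tested. In tissue captures, fewer cells of a type and less RNA per cell cannot be told apart. The choroid plexus list has 5 genes, of which Ttr and Clic6 were tested. Ttr, a transport protein, was singled out after its values were seen and read 11996 on control mouse 1 and 17436 on transgenic mouse 2 array 1, against 178 to 1118 on the other arrays. The mean level of the tested members was highest on the same 2 arrays, 0.11 and 0.15 over the 6-array mean in log2, and lowest on transgenic mouse 2 array 2, at -0.21. Clic6 was not high on those arrays, at 68.0 and 56.5, against 46.0 to 118 on the other 4. The part of choroid plexus RNA was not tested. That last array held the lowest value of 9 of the 26 members (34.6%, against 15.9% of all genes).

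**Figure D5:**
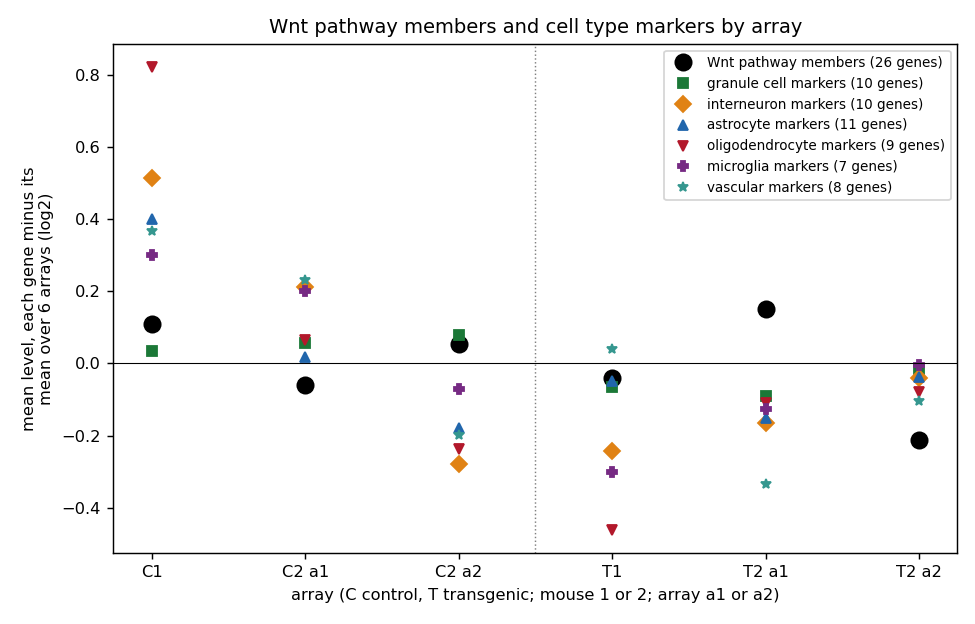
Mean level of the 26 tested members and of 6 cell type marker lists on each array, each gene taken relative to its mean over the 6 arrays (log2). Oligodendrocyte markers stand at 0.82 on control mouse 1, while the members lie between -0.21 and 0.15 on all arrays.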

How the data were processed

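RNA of isolated cells was measured on 6 Affymetrix mouse arrays. The authors deposited linear intensity values per probe set, scaled so that the 2% trimmed mean is 150 on each array, as the values show. The summarisation program and background correction are not stated, so how dim probe sets were treated is unknown, and the number of arrays limits the precision. From the deposited intensities, 64 control probe sets were removed, values under the pooled 25th percentile (10.1) were set to it and log2 was taken. Of 45037 probe sets 34945 have 1 symbol in the platform annotation, 932 several and 9160 none. All 51 members matched a RefSeq gene by identifier. The arrays of a mouse were averaged, so the single array of mouse 1 weighs as much as the 2 of mouse 2. Groups were compared across all genes in limma 3.58.1 under R 4.3.3 (functions lmFit, eBayes), with p-values adjusted (Benjamini-Hochberg, threshold 0.05; 2 residual and 2.70 prior degrees of freedom), after the fit was tested on simulated data. By permutation alone 2 against 2 mice could not go below p = 0.333 in an exact two-sided test. Every member could be named, and up to 4 genes of smallest p per other pathway list, while marker lists were given by counts and sums; Nlk, Mycn, Prox1, Calb1, Clic6 and Ttr fall outside that rule. Members, lists and alternatives were chosen with earlier results of these data known. The alternatives concerned normalization, floor, filter, probe sets, unit of replication, title tag, variance model and leave-outs.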

Additional observations from a re-analysis of the deposited data

How the results depend on the processing

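No member was called under any alternative with a test. Over all genes, 1 was called with a variance trend and robust variance, and 0 otherwise. The median difference of the members was -0.019 with the mouse as a random block and ran from -0.12 to -0.016 over leave-outs. With that block the estimated correlation of arrays within a mouse was negative, at -0.537. With the mouse number as replicate block, 0 genes were called and the median was -0.09. The labels do not say whether mice of the same number belong together. Deviations of mouse 1 and mouse 2 correlated across genes at 0.033 between the groups, which with 2 mice per group cannot settle it. The count of members whose arrays did not overlap was 1 of 27 after quantile normalization (Wnt11, with Ctnnb1 lost), where 7.9% of all genes did so. It was 4 of 51 with no filter, which tests more genes, where 7.06% of all genes did so. With fewer arrays it rises by construction, to 15 of 26 within the tagged arrays, 15 within the others and 3 to 13 over leave-outs. The shares of all genes rose as well, to 64%, 63.1% and 15.7% to 48.9%, so these counts are no result about the members. Of 543 member values under alternatives, 507 moved by no more than the spread between mice, 23 moved further with the same sign and 13 moved further with the opposite sign. These 13 follow, or lie in the ranges given. With the mean of its probe sets Gsk3b stood at -0.12. Within the tagged arrays Axin1 was at 0.52 and Fzd5 at 0.23. Within the others Apc was at 0.16, Dvl1 at -0.053, Fzd1 at 0.34, Fzd3 at 0.16, Gsk3a at 0.0026, Gsk3b at -0.083, Wnt7b at -0.054 and Wnt9a at -0.17. Over leave-outs Fzd3 ran from -0.15 to 0.077 and Wnt9a from -0.030 to 0.24. The cause of these turns was not tested. Dim signal limits Wnt11, Fzd6 (-0.58 with the floor at the median) and all untested members.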
